A study of Mus musculus with 18 samples.

Results

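Alveolar type II cells from control mice after 2 h of hyperoxia were compared with control type II cells at 0 h, on 3 arrays at each time, which are 6 of the 18 arrays of the study. The arrays were taken by the genotype and time in their titles. The study set type II cells without Cebpa, the gene of the transcription factor C/EBPα, beside controls at 0, 2 and 24 h of hyperoxia, a high concentration of inspired oxygen. The control mice carried 2 floxed Cebpa alleles, CEBP/a(flx/flx), and were littermates that lacked either the rtTA or the Cre transgene, so at least 1 part of the system that deletes the gene was missing. The Cebpa-deleted mice, used here only for a comparison of responses, were CCSP/rtTA/CEBPa(flx/flx), with 3 arrays at 2 h and 3 at 0 h. CCSP is a gene of Clara cells, and the design names Clara and type II cells as the sites of deletion. All mice were 7 to 8 weeks old. Hyperoxia is given by the design of the series, whereas each sample's own description states air. The labels do not say whether each array came from a different animal, and the p-values reflect only the scatter of these samples, which can be technical.

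Type II cells line the alveoli, make and secrete lung surfactant, a mixture of phospholipids and the surfactant proteins, and divide to replace the thin type I cells after injury. High oxygen damages this epithelium, and the first hours of exposure are those in which immediate early genes, stress pathways and inflammatory mediators can respond before cell death and inflammation set in. C/EBPα is a basic leucine zipper factor that controls lipid and surfactant genes in these cells, and its relatives C/EBPβ and C/EBPδ are known as early inflammatory factors.

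All levels are log2 RMA expression values, quantile normalized over the 6 arrays because the deposited 0 h arrays had a wider range. The interquartile range of the deposited values was 2.13 to 2.38 in the 2 h arrays and 2.97 to 3.04 in the 0 h arrays. Arrays correlated across genes with r between 0.990 and 0.995 within the 2 h group, between 0.994 and 0.995 within the 0 h group and between 0.961 and 0.975 across the groups. Time and any difference in array processing between the groups cannot be told apart. The labelled cell type was seen on every array. Averaged over 20 type II cell markers the level was 12.21 to 12.43 in the 2 h arrays, against 12.46 to 12.48 in the 0 h arrays. Their levels lay above those of the olfactory receptor features, which served as a rough background because type II cells are not known to use these genes. The 95th percentile of that background was 6.49 in the 2 h group and 5.94 in the 0 h group. In these bulk samples fewer cells of a type and less RNA per cell cannot be told apart.

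Calls were spread over the whole transcriptome. Of 19938 genes 9320 (46.7%) changed at an adjusted p below 0.05 in limma's moderated test with Benjamini-Hochberg adjustment. At 2 h 4304 genes (21.6%) were higher and 5016 (25.2%) were lower, so that 46.2% of the calls were rises. With median and interquartile range scaling the number of calls was 9669, of which 35.9% were rises. In the main normalization 3102 genes (15.6%) were called and at least 1.5-fold apart, 1437 higher (7.21%) and 1665 lower (8.35%). The 2 h arrays did not overlap the 0 h arrays for 57.8% of all genes, lying above in 26.6% and below in 31.2%. The median change was -0.027, and the 5th and 95th percentiles of the changes were -0.71 and 0.68. "Rose" and "fell" are used below only of genes that passed this test. Counts of list members below stand against these shares of all genes, 21.6% higher and 25.2% lower.

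The direction of change depended on the level of the gene. In the lowest of 10 equal groups of genes by mean level the median change was 0.21 and 41.0% of genes rose, whereas 9.83% fell. In group 7 the median was -0.13, with 13.1% higher and 32.4% lower. In groups 9 and 10, those of highest level, 12.3% and 12.4% rose and 25.4% and 22.5% fell. The olfactory receptor genes moved with the low levels: 638 of 1027 rose, 28 fell and their median change was 0.42. Their median was 0.78 in the values as deposited and 0.18 with median and interquartile range scaling. A rise of this size at a low level was therefore common on these arrays. Genes named below whose mean level lay under the olfactory 95th percentile at 2 h, at 0 h or at both are listed as such in their paragraphs. For a level under it at 1 or both times the size of the change is not fixed by these values. Counts of list members from fits that left out a single array, named by its replicate number, are given where they differ from those of all arrays by over 1.5 times and by at least 2 members. Among the 13149 genes whose mean level exceeded the olfactory 95th percentile, which were tested alone as an alternative added after the data were seen, 5957 changed, 2139 upward and 3818 downward.

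**Figure D1:**
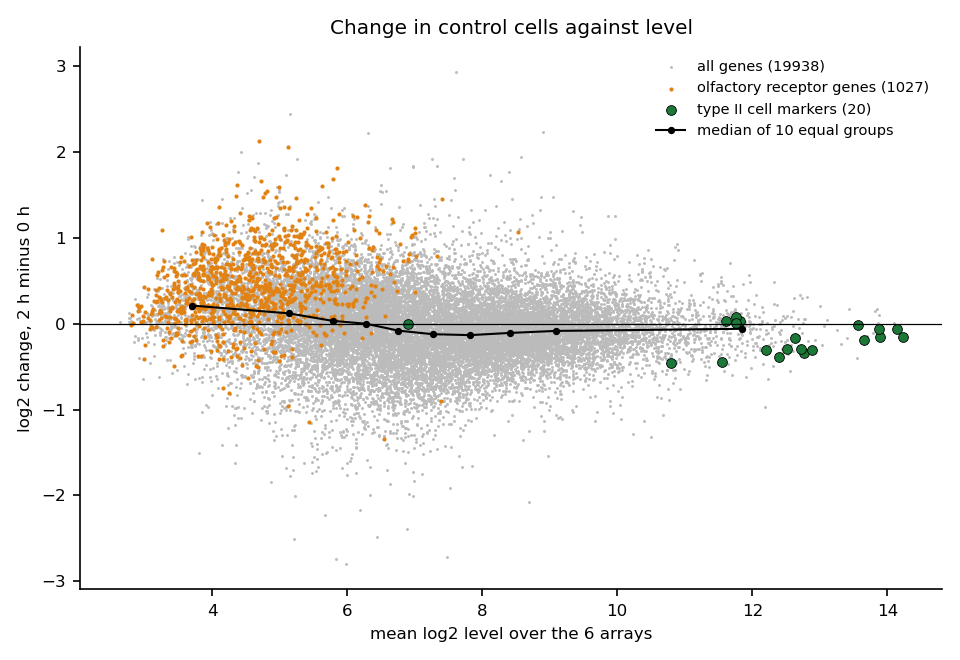
The log2 change (2 h minus 0 h, y axis) of every gene is plotted against its mean log2 level over the 6 arrays (x axis), with olfactory receptor genes in orange, type II cell markers in green and the median of each of 10 equal groups of genes in black. Olfactory receptor genes lie mostly above 0 with a median of 0.42, while most type II cell markers lie at the right of the plot with changes near or below 0.

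The largest rises among genes with non-overlapping arrays included genes known from testis, hair and antibodies. Srsy, a Y-linked gene with near-identical copies, had levels of 9.40, 8.82 and 9.02 in the 2 h arrays, against 6.11, 6.14 and 6.17 in the 0 h arrays. All the 2 h arrays were above all the 0 h arrays (log2 change 2.94, SE 0.14, adjusted p = 4.14e-05). Next in rank were Tmem92 (2.45), Krtap5-3 (1.94), Ighg3 (1.92), an antibody heavy chain gene, and Tex24 (1.87). The Krtap5 genes encode keratin-associated proteins of hair, and their sequences are alike, so the array may not separate them. Of all 44 measured Krtap genes 30 rose and 1 fell, with a median change of 0.48, close to that of the olfactory receptor genes. The beta-defensins (21 of 40 higher, 2 lower) and the vomeronasal receptors (92 of 167 higher, 3 lower) had medians of 0.33 and 0.37, and these families were picked after their values were seen. With median and interquartile range scaling the vomeronasal median was 0.00042. For Tmem92, Ighg3 and Tex24 the mean level lay below the olfactory 95th percentile at both times.

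The largest falls included many zinc finger genes. Zfp931, a zinc finger protein gene, had levels of 4.01, 4.2 and 5.16 in the 2 h arrays, against 7.31, 7.18 and 7.12 in the 0 h arrays. Every 2 h array was lower than every 0 h array (log2 change -2.74, SE 0.26, adjusted p = 0.000173). The other leading falls were Zfp758 (-2.23), Usp17ld (-2.08), a deubiquitinase of a repeated family, Zfp518a (-2.01), Bex1 (-1.91), an X-linked adaptor, Fam72a (-1.87), Zfp950 (-1.84), H3c15 (-1.84), a replication histone, Phtf1os (-1.77) and Zfp119a (-1.76). The pattern covered the family: 191 of the 347 measured genes named Zfp with a number fell and 33 rose, with a median change of -0.37 that kept its sign in all 5 scalings. Replication histones fell in 14 of 22 cases and rose in 3 (median -0.60). The families were grouped by symbol after their values were seen. For Zfp931, Zfp758, Zfp518a, Fam72a, H3c15, Phtf1os and Zfp119a the mean level lay below the olfactory 95th percentile at 2 h, and for Zfp950 at both times.

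Among the 4984 genes in the upper 25 percent by mean level over all 18 arrays, a cut chosen after the values were seen, the changes were smaller. Cxcr4, the receptor of the chemokine Cxcl12, had levels of 10.72, 10.93 and 10.15 in the 2 h arrays, against 9.53, 9.33 and 9.17 in the 0 h arrays. The groups did not overlap, and the 2 h mean was 2.39 times the 0 h mean (log2 change 1.26, SE 0.19, adjusted p = 0.00112). Besides the Krtap5 genes the leading rises were Plb1 (1.67), a phospholipase, Sfi1 (1.46), a centrosome protein, Nyx (1.31), Nhlrc1 (1.26), a ubiquitin ligase, Rpl29 (1.26), a ribosomal protein, and Ccl5 (1.25). The leading falls were Bex2 (-1.55), Hspa1a (-1.28), Psme2 (-1.25), a proteasome activator subunit, Zfp971 (-1.25), Cox7a2 (-1.14), a subunit of cytochrome oxidase, Cirbp (-1.13), the cold-inducible RNA-binding protein, and Bex4 (-1.11). The arrays of the 2 h group spread more than those of the 0 h group for Cxcr4 and Bex2, with SDs of 0.40 and 0.54 in the 2 h group against 0.18 and 0.17 in the 0 h group.

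**Figure D2:**
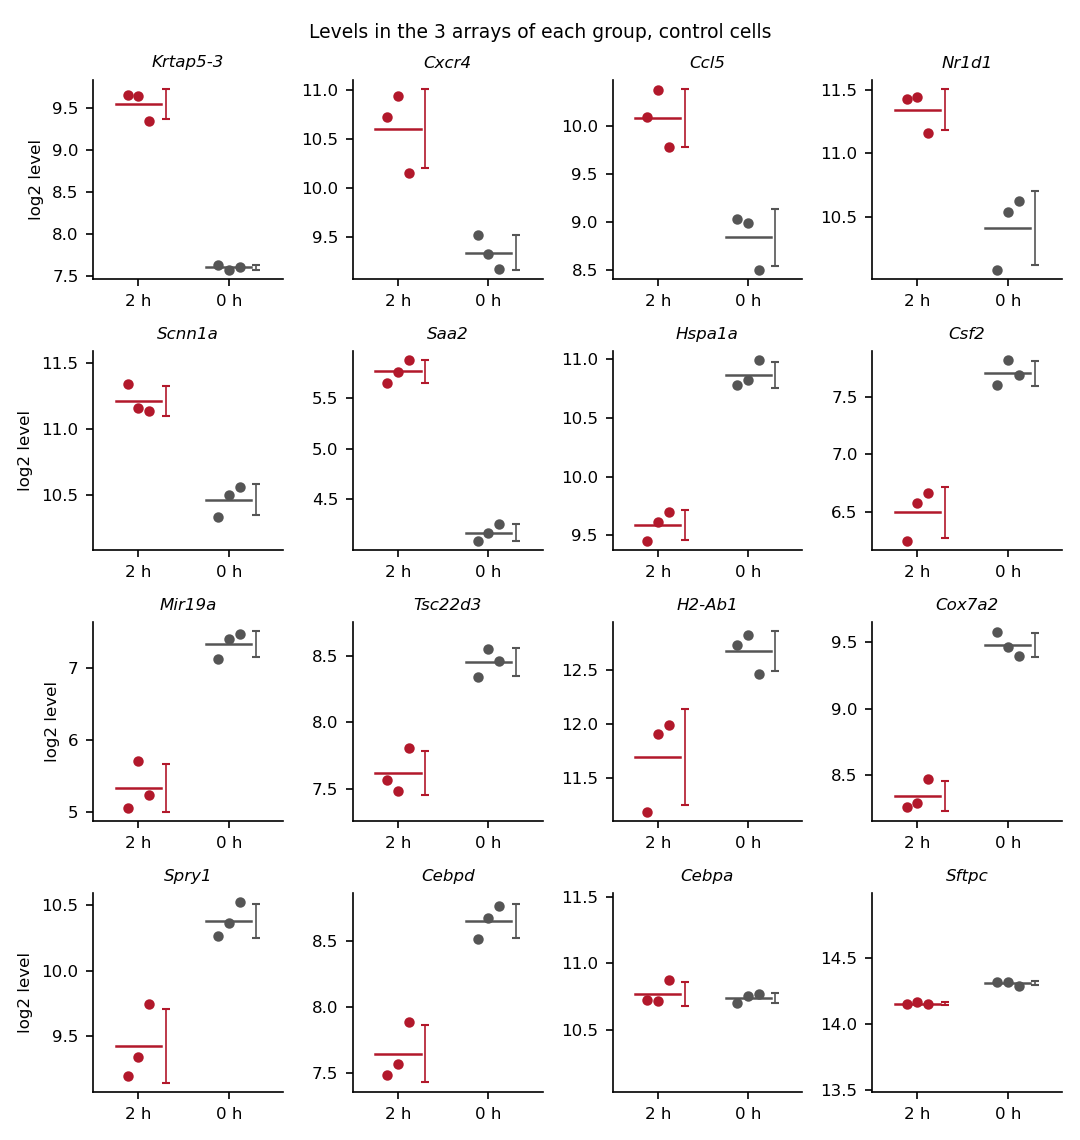
Log2 levels (y axis of each panel) of 16 genes in the 3 control arrays at 2 h (red, left) and the 3 at 0 h (grey, right), with the mean as a line and the SD as a bar beside it. The 2 groups do not overlap for any of these genes except Cebpa, and the difference for Sftpc is small (-0.16).

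MicroRNAs of 1 polycistron fell together with their host transcript. The miR-17-92 cluster is a known set of growth-promoting miRNAs cut from a single primary transcript, Mir17hg, and 5 of its hairpins were measured within 721 bases at chr14:115043671-115044391 (GRCm38.p6, plus strand). The mature sequences below, from RefSeq, are shown because the members fall into seed groups, with bases 2 to 8 of each in capitals. Mir17 and Mir20a share the seed AAAGUGC, Mir19a and Mir19b-1 share GUGCAAA, and Mir18 has AAGGUGC. Mir425 and Mir191 lie together at another place, on chromosome 9, in the gene Dalrd3.
mmu-miR-17-5p: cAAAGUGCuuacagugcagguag
mmu-miR-20a-5p: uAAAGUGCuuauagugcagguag
mmu-miR-18a-5p: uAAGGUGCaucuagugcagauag
mmu-miR-19a-3p: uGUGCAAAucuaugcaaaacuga
mmu-miR-19b-3p: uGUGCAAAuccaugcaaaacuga
mmu-miR-425-5p: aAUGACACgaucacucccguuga
mmu-miR-191-5p: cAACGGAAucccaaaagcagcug

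Mir19a had levels of 5.06, 5.71 and 5.25 in the 2 h arrays, against 7.13, 7.40 and 7.47 in the 0 h arrays. All the 2 h arrays were lower (log2 change -1.99, SE 0.17, adjusted p = 0.000122). Mir19b-1, with the same seed, had levels of 5.68, 6.58 and 6.22 in the 2 h arrays, against 7.47, 7.64 and 7.83 in the 0 h arrays, which is also a fall without overlap (log2 change -1.49, SE 0.20, adjusted p = 0.000787). Mir20a fell by 1.48 and Mir18 by 1.45 on the log2 scale, both with separate groups. Mir17, which shares its seed with Mir20a, had levels of 6.45, 6.75 and 6.23 in the 2 h arrays, against 6.66, 7.06 and 7.08 in the 0 h arrays. Here the groups overlapped, and the fall was the smallest of the cluster (log2 change -0.46, SE 0.15, adjusted p = 0.0388). The host transcript Mir17hg had levels of 5.89, 6.26 and 5.89 in the 2 h arrays, against 7.03, 7.02 and 7.34 in the 0 h arrays, again without overlap (log2 change -1.12, SE 0.13, adjusted p = 0.00043). Mature miRNA and longer precursors carrying the same bases cannot be told apart on this array. For Mir19a, Mir19b-1, Mir20a, Mir18, Mir17 and Mir17hg the mean level lay below the olfactory 95th percentile at 2 h.

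Other small RNAs moved in both directions. Mir425 had levels of 6.44, 6.65 and 6.71 in the 2 h arrays, against 7.95, 8.14 and 8.09 in the 0 h arrays. It was lower in each 2 h array (log2 change -1.46, SE 0.098, adjusted p = 7.58e-05), and Mir191 from the same place fell by 1.01 on the log2 scale, while Dalrd3 itself fell by 0.28. Mir680-2 rose, with levels of 10.32, 9.95 and 9.81 in the 2 h arrays, against 7.89, 7.59 and 7.88 in the 0 h arrays (log2 change 2.24, SE 0.14, adjusted p = 6.87e-05), and so did Mir680-1 (1.73) and Mir598 (1.48). Of 296 measured miRNA genes 103 rose and 67 fell (median 0.097, but -0.13 with median and interquartile range scaling). The small nucleolar RNAs, which guide the modification of ribosomal RNA, were mostly lower: 25 of 31 C/D box members fell and 1 rose (median -1.06), and 13 of 20 H/ACA box members fell and 1 rose (median -0.60), in both cases with the same sign in all 5 scalings. Snord47 had levels of 5.82, 6.37 and 6.16 in the 2 h arrays, against 8.73, 8.81 and 8.98 in the 0 h arrays (log2 change -2.72, SE 0.14, adjusted p = 5.35e-05). Snord52 and Snord37 changed by -2.39 and -2.17. The small RNAs described were picked after their values were seen. For Snord47, Snord52 and Snord37 the mean level lay below the olfactory 95th percentile at 2 h.

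Markers of the type II cell itself changed little in this normalization. None of the 20 measured markers rose and 7 fell, none of them by 1.5-fold, with a median change of -0.16, but 0.48 with median and interquartile range scaling. In the values as deposited 0 rose and 18 fell, with a median of -0.72, so the direction and size of this result depend on the normalization. Sftpc, the most specific surfactant protein gene, had levels of 14.15, 14.16 and 14.15 in the 2 h arrays, against 14.32, 14.32 and 14.29 in the 0 h arrays. The groups did not overlap but the change did not pass the test (log2 change -0.16, adjusted p = 0.104, and 0.76 with median and interquartile range scaling). Sftpa1 (-0.061) and Sftpb (-0.017) did not pass, and both were positive with median and interquartile range scaling (0.82 and 0.87). Sftpd, a collectin of airway defence, had levels of 12.49, 12.55 and 12.71 in the 2 h arrays, against 12.97, 12.97 and 12.86 in the 0 h arrays, a fall without overlap (log2 change -0.35, SE 0.088, adjusted p = 0.0122, but 0.35 with median and interquartile range scaling). The other named falls were Egfl6 (-0.44), Napsa (-0.38, but 0.30 with median and interquartile range scaling), the protease that matures surfactant protein B, and Lamp3 (-0.29, but 0.40), a lamellar body membrane protein. Abca3, the lipid transporter of lamellar bodies, had a change of 0.038 that did not pass, and -0.44 in the values as deposited. These genes sit at the top of the array's range, where the 2 groups of deposited arrays had different maxima (13.81 to 13.86 in the 2 h arrays, 14.57 to 14.62 in the 0 h arrays). In the type II cell list 3 fell without 2 h array 1 or 2, 4 fell without 0 h array 1, 11 fell without 2 h array 3 and 16 rose and 0 fell with median and interquartile range scaling. By ranks within arrays 0 rose and 0 fell.

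Lipid synthesis genes fell more often than they rose in this normalization. Of 19 measured genes of surfactant phospholipid synthesis and lamellar bodies 9 fell and 1 rose (median change -0.29), although 7 rose and 4 fell with median and interquartile range scaling. Chka, the choline kinase that starts phosphatidylcholine synthesis, had levels of 9.87, 9.74 and 9.65 in the 2 h arrays, against 10.29, 10.26 and 10.16 in the 0 h arrays, all lower at 2 h (log2 change -0.48, SE 0.088, adjusted p = 0.00273). Lpin1, a phosphatidate phosphatase, changed by -0.44 and Gpam, the first acyltransferase of glycerolipid synthesis, by -0.44. Cholesterol synthesis had 7 of 19 members lower and 0 higher (median change -0.29). Its largest falls were Tm7sf2 (-0.80), Cyp51 (-0.60), Nsdhl (-0.55) and Idi1 (-0.55), enzymes of the sterol pathway. For Tm7sf2 the levels were 7.90, 7.81 and 8.59 in the 2 h arrays, against 9.04, 8.94 and 8.70 in the 0 h arrays, so 1 of the 2 h arrays lay close to the 0 h range. Fatty acid synthesis had 6 of 17 lower and 1 higher (median change -0.25, but 0.20 with median and interquartile range scaling, where 7 rose), with falls of Acacb (-0.64) and Acaca (-0.58), the acetyl-CoA carboxylases, and of Thrsp (-0.63). The 1 riser there was Pparg (0.51, adjusted p = 0.0226), a lipid-sensing nuclear receptor. In the surfactant phospholipid list 5 fell without 2 h array 2, and 1 rose and 3 fell by ranks within arrays. In the cholesterol synthesis list 3 fell without 2 h array 1 or 0 h array 1 or 2, 4 fell without 2 h array 2, 11 fell without 2 h array 3, 3 rose and 6 fell with median and interquartile range scaling and 1 fell by ranks within arrays. In the fatty acid synthesis list 10 fell without 2 h array 3 and 7 rose and 4 fell with median and interquartile range scaling.

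Transcription factors of the lung epithelium moved in both directions. Of 19 measured 4 rose (21.1%) and 3 fell (15.8%), against 21.6% and 25.2% of all genes (median change -0.12). The median level of this list was 9.40 at 2 h. In groups 9 and 10 of all genes by level 12.3% and 12.4% rose and 25.4% and 22.5% fell. Nkx2-1, the factor that specifies lung epithelium, had levels of 10.29, 10.48 and 10.52 in the 2 h arrays, against 9.94, 9.86 and 9.93 in the 0 h arrays. It was higher in all the 2 h arrays (log2 change 0.52, SE 0.086, adjusted p = 0.00187), as were Foxa1 (0.49), a partner of Nkx2-1 at surfactant promoters, and Sox2 (0.71), a factor of the conducting airway. Elf5 (-0.59) and Foxp2 (-0.58), factors of the distal epithelium, fell. Among 15 genes of ion and water transport 2 rose and 3 fell (median change -0.0062, but 0.098 with median and interquartile range scaling and 0.065 with cyclic loess). Scnn1a, the alpha subunit of the epithelial sodium channel through which alveoli clear fluid, had levels of 11.34, 11.16 and 11.14 in the 2 h arrays, against 10.34, 10.50 and 10.56 in the 0 h arrays, without overlap (log2 change 0.74, SE 0.095, adjusted p = 0.0006). The water channel Aqp1, an abundant channel of endothelium, rose by 0.69. Cftr, the chloride channel, fell by 0.85 and the potassium channel Kcnj15 by 0.85 on the log2 scale. In the transcription factor list 5 fell without 2 h array 3. In the ion transport list 6 rose and 3 fell with median and interquartile range scaling.

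**Figure D3:**
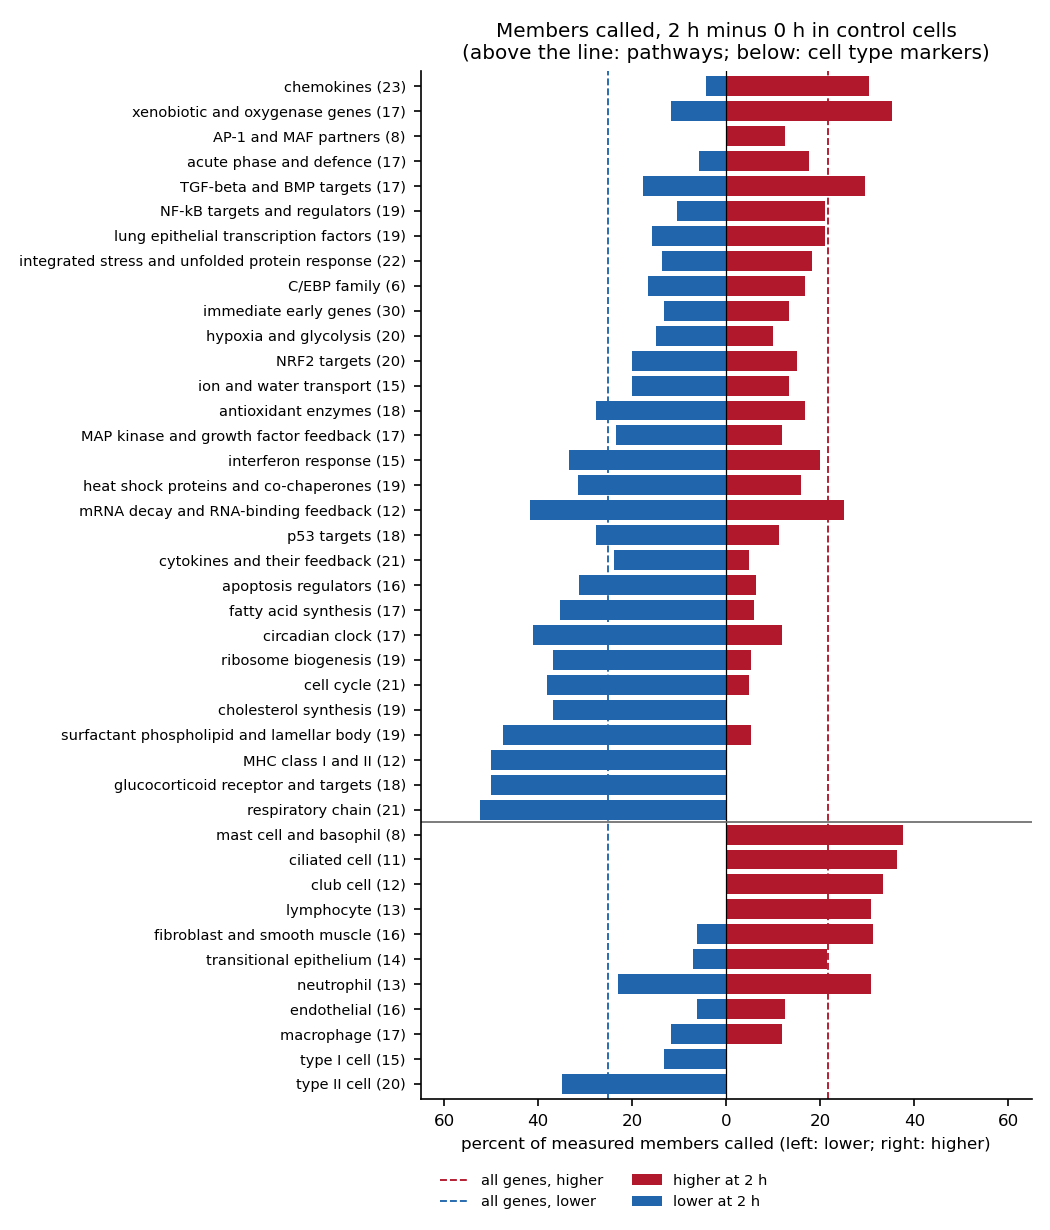
For each gene list, bars show the percent of measured members that rose (right, red) or fell (left, blue) at 2 h, with the number measured in parentheses and dashed lines at the percent of all genes called (21.6 higher, 25.2 lower). The respiratory chain, glucocorticoid and MHC lists reach 50% or more to the left with no member to the right in the normalization shown, while chemokines reach 30.4% to the right.

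Immediate early genes, which respond to stimuli without new protein synthesis, showed no common rise. Of 30 measured 4 rose and 4 fell (median change -0.058, but 0.16 with median and interquartile range scaling and 0.025 with cyclic loess). Each share was 13.3%, smaller than of all genes. The list's median level was 9.78 at 2 h, and in group 10 of all genes by level 12.4% rose and 22.5% fell. Fos, the classic member, had levels of 10.35, 10.89 and 10.82 in the 2 h arrays, against 10.28, 10.57 and 10.81 in the 0 h arrays. The groups overlapped and the change did not pass (log2 change 0.14, adjusted p = 0.535, and -0.36 in the values as deposited). Egr1 did not pass either (-0.31, adjusted p = 0.142). Ier2 had levels of 8.53, 8.80 and 8.86 in the 2 h arrays, against 9.44, 9.68 and 9.69 in the 0 h arrays, a fall without overlap (log2 change -0.87, SE 0.11, adjusted p = 0.00061). Ier3 (-0.67) and Junb (-0.57) fell as well, whereas Fosl1, an AP-1 subunit, rose by 0.64 with overlapping groups. Of 8 AP-1 and MAF partners 1 rose and 0 fell (median change 0.10, but -0.17 in the values as deposited). Among the feedback genes of the MAP kinase pathway 2 of 17 rose and 4 fell (median change 0.055, but -0.31 in the values as deposited). Spry1, an inhibitor of growth factor signalling, had levels of 9.19, 9.33 and 9.74 in the 2 h arrays, against 10.26, 10.36 and 10.52 in the 0 h arrays (log2 change -0.96, SE 0.14, adjusted p = 0.00112). Its relative Spred1 changed by -0.51 and the ligand Tgfa by 0.53. In the immediate early gene list 0 rose without 2 h array 1, 1 rose without 2 h array 2 or 0 h array 1, 2 rose without 0 h array 3, 8 rose without 2 h array 3 and 11 rose and 5 fell with median and interquartile range scaling. By ranks within arrays 0 rose and 3 fell in that list. In the MAP kinase feedback list 4 rose without 2 h array 3.

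Inflammatory mediators were mixed. Of 19 NF-kB targets and regulators 4 rose (21.1%) and 2 fell (10.5%), against 21.6% and 25.2% of all genes (median change 0.11, but -0.19 in the values as deposited). Vcam1, the adhesion molecule that binds leukocyte integrins, had levels of 9.13, 8.84 and 8.69 in the 2 h arrays, against 8.05, 7.79 and 8.02 in the 0 h arrays, all higher at 2 h (log2 change 0.93, SE 0.13, adjusted p = 0.000738), and Bcl3, a nuclear IkB protein, rose by 0.57. Among the chemokines 7 of 23 rose (30.4%) and 1 fell (4.35%), with a median of 0.23 that stayed positive in all 5 scalings. Ccl5, a T cell attractant, had levels of 10.10, 10.38 and 9.78 in the 2 h arrays, against 9.03, 8.99 and 8.50 in the 0 h arrays. The groups did not overlap, and the 2 h mean was 2.37 times the 0 h mean (log2 change 1.25, SE 0.18, adjusted p = 0.00103). Ccl20 (0.82), the ligand of Ccr6, Ccl9 (0.68) and Ccl7 (0.53), attractants of myeloid cells, rose by smaller amounts. In the NF-kB list 8 rose without 2 h array 3.

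Among cytokines and their feedback genes 5 of 21 fell, which is 23.8% and close to the 25.2% of all genes, and 1 rose (median change -0.026 and the same sign in all 5 scalings). Csf2, the growth factor GM-CSF that alveolar macrophages need to clear surfactant, had levels of 6.24, 6.57 and 6.66 in the 2 h arrays, against 7.61, 7.82 and 7.69 in the 0 h arrays. Each 2 h array was lower and the 2 h mean was 43% of the 0 h mean (log2 change -1.22, SE 0.12, adjusted p = 0.000209), at a 2 h level close to the 95th percentile of the olfactory background. Socs3, the feedback inhibitor of Stat3 signalling, had levels of 8.94, 8.99 and 8.85 in the 2 h arrays, against 9.57, 9.80 and 9.56 in the 0 h arrays (log2 change -0.72, SE 0.093, adjusted p = 0.000619), and Socs2, the inhibitor of growth hormone signalling, fell by 0.89 on the log2 scale. Il6, the cytokine upstream of Stat3, had levels of 9.03, 8.86 and 9.11 in the 2 h arrays, against 8.88, 8.72 and 8.54 in the 0 h arrays. Its change of 0.28 did not pass (adjusted p = 0.0629, and -0.13 in the values as deposited). In the cytokine list 4 rose and 6 fell with median and interquartile range scaling.

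Clock genes moved in opposite directions. Of 17 measured 2 rose and 7 fell (median change -0.20). Nr1d1, which encodes the repressor REV-ERBα, had levels of 11.43, 11.45 and 11.16 in the 2 h arrays, against 10.08, 10.54 and 10.62 in the 0 h arrays. The 2 h arrays were all higher (log2 change 0.93, SE 0.15, adjusted p = 0.00155). Dbp, an output factor of the clock, had levels of 7.76, 7.89 and 7.54 in the 2 h arrays, against 6.87, 7.01 and 6.97 in the 0 h arrays, also without overlap (log2 change 0.78, SE 0.10, adjusted p = 0.000691). The falls included Ciart (-0.47), a repressor of the clock, the period genes Per3 (-0.41) and Per1 (-0.38), and Nfil3 (-0.37), which opposes Dbp. The hour of cell isolation is not given in the labels. The Ciart promoter is shown because it carries 3 copies of the E-box CACGTG (in capitals), the letters bound by the clock activators, within 250 bases before and 50 after the gene's start (RefSeq, GRCm38.p6). Whether the Ciart feature measures this locus or a like copy elsewhere was not checked. The motif, which reads the same on both strands, occurs in 7.15% of 32851 promoters of this length, and 0.0883% hold 3 or more. Among the clock genes with a promoter in these tables it was in 0 of 2 promoters of genes that rose, in 2 of 7 of those that fell and in 3 of 6 of the others. In the circadian clock list 4 rose without 2 h array 3 and 4 fell without 2 h array 2 or 0 h array 2.
Ciart promoter (chr3:95882179-95882478, minus strand): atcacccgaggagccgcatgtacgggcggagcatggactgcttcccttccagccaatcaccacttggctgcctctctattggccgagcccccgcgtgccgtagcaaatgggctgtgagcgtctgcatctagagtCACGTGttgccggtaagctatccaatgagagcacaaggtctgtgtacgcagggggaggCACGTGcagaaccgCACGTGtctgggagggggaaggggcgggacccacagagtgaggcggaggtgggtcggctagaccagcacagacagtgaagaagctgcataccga

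Targets of the glucocorticoid receptor fell or did not pass in this normalization. None of 18 measured rose and 9 fell (50%, median change -0.23 and the same sign in all 5 scalings), but 3 rose and 7 fell with median and interquartile range scaling and 1 rose and 8 fell with cyclic loess. Tsc22d3, the anti-inflammatory target GILZ, had levels of 7.57, 7.48 and 7.80 in the 2 h arrays, against 8.34, 8.55 and 8.47 in the 0 h arrays. It was lower in every 2 h array (log2 change -0.84, SE 0.10, adjusted p = 0.000546). Angptl4, an inhibitor of lipoprotein lipase, fell by 0.94, the transcription factor Zbtb16 by 0.77, the mTOR inhibitor Ddit4 by 0.65 and the metallothionein Mt2 by 0.62 on the log2 scale. Fkbp5, a chaperone that limits the receptor, had a change of 0.28 that did not pass (adjusted p = 0.0849) although its groups did not overlap. In the glucocorticoid target list 2 rose without 2 h array 3. For Angptl4 the mean level lay below the olfactory 95th percentile at 2 h.

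Heat shock genes were not raised as a group. Of 19 measured 3 rose and 6 fell (median change -0.074, but 0.27 with median and interquartile range scaling). Hspa1a, the inducible chaperone HSP70, had levels of 9.45, 9.61 and 9.70 in the 2 h arrays, against 10.78, 10.82 and 10.99 in the 0 h arrays. The groups were far apart and the 2 h mean was 41.2% of the 0 h mean (log2 change -1.28, SE 0.097, adjusted p = 0.0001). Chordc1, a co-chaperone of HSP90, fell by 0.59, Hspe1, the mitochondrial co-chaperonin, fell by 0.46, and Hspa4l, a nucleotide exchange factor, rose by 0.57 on the log2 scale. The promoters of Hspa1a and Hspe1 are shown for the heat shock element, the inverted repeat bound by HSF1, searched as GAANNTTC and TTCNNGAA on both strands and printed in capitals where found (250 bases before to 50 after the start, RefSeq, GRCm38.p6). Hspa1a holds 1 match, whose first base is at -104 from the start. Hspe1 holds 3 overlapping matches from -89, and Chordc1 holds 5. Whether the Hspe1 feature measures this locus or a like copy elsewhere was not checked. At least 1 match occurs in 15.1% of 32851 promoters and 3 or more in 0.256%. Among the genes of the list with a promoter in these tables the motif was in 0 of 3 promoters of genes that rose, 4 of 5 of those that fell and 6 of 8 of those that did not pass. In the heat shock list 2 fell without 2 h array 2 or 0 h array 1 or 2 and 8 rose and 3 fell with median and interquartile range scaling. By ranks within arrays 2 rose and 1 fell.
Hspa1a promoter (chr17:34972107-34972406, minus strand): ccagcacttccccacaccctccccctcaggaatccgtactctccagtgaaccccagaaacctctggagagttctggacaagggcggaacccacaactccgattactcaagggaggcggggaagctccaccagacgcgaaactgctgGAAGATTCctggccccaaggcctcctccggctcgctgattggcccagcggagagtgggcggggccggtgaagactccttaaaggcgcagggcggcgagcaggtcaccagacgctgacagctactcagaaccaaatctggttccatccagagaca
Hspe1 promoter (chr1:55087898-55088197, plus strand): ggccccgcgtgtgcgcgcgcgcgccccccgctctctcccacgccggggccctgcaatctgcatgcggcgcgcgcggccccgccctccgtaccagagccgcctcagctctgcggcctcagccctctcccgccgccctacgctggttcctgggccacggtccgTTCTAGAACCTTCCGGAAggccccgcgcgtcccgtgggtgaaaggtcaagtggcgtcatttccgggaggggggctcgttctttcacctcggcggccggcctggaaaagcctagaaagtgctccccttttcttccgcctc

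The oxidant defence genes, of direct interest in hyperoxia, showed no shared rise at 2 h. Of 20 NRF2 targets 3 rose and 4 fell (median change 0.022, but -0.40 in the values as deposited). Nqo1, a quinone reductase used as a marker of NRF2 activity, had levels of 6.91, 6.73 and 6.93 in the 2 h arrays, against 7.23, 7.58 and 7.31 in the 0 h arrays, all lower at 2 h (log2 change -0.52, SE 0.11, adjusted p = 0.00527). Cbr3, a carbonyl reductase, fell by 0.83 and Nfe2l2, the gene of NRF2 itself, by 0.42. Gclm, a subunit of the enzyme that limits glutathione synthesis, had levels of 9.64, 9.61 and 9.45 in the 2 h arrays, against 9.06, 9.09 and 9.10 in the 0 h arrays, a rise without overlap (log2 change 0.49, SE 0.081, adjusted p = 0.00189). Hmox1, heme oxygenase, rose by 0.35 (adjusted p = 0.0466) but was -0.13 in the values as deposited. Among antioxidant enzymes 3 of 18 rose and 5 fell (median change -0.14, but 0.0059 with median and interquartile range scaling). The glutathione peroxidase Gpx1 had levels of 10.31, 10.28 and 10.54 in the 2 h arrays, against 11.14, 11.21 and 11.05 in the 0 h arrays (log2 change -0.76, SE 0.096, adjusted p = 0.000555), and Gpx4, the peroxidase of membrane lipids, changed by -0.60. The secreted peroxidase Gpx3 (0.59) and the cytosolic superoxide dismutase Sod1 (0.58) rose. In the NRF2 target list 1 rose without 2 h array 1 or 2 or 0 h array 1 or 3, 6 rose without 2 h array 3 and 9 rose and 2 fell with median and interquartile range scaling. In the antioxidant enzyme list 6 rose and 3 fell with median and interquartile range scaling. By ranks within arrays 1 NRF2 target rose and 2 fell, and 2 antioxidant enzymes rose and 2 fell. For Cbr3 the mean level lay below the olfactory 95th percentile at 2 h.

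The remaining stress lists held rises and falls of moderate size. The integrated stress and unfolded protein response had 4 of 22 higher and 3 lower (median change -0.038, but 0.15 with median and interquartile range scaling and 0.0072 with cyclic loess), with Chac1, a glutathione-degrading target of ATF4, at 0.61 and the endoplasmic reticulum protein Sdf2l1 at -0.49. Of 18 p53 targets 2 rose (11.1%) and 5 fell (27.8%), against 21.6% and 25.2% of all genes (median change -0.12). By ranks within arrays 1 p53 target rose and 2 fell. Among the targets Bbc3, the death gene PUMA (-0.60), Plk2 (-0.59) and Gadd45g (-0.55) fell, and Phlda3 (0.55), an Akt inhibitor, rose. Of 20 hypoxia and glycolysis genes 2 rose and 3 fell (median change -0.063). The 3 falls were Adm (-0.60), Ankrd37 (-0.57) and Pfkfb4 (-0.48), all known HIF targets. Ankrd37 had levels of 7.16, 7.13 and 7.2 in the 2 h arrays, against 7.86, 7.77 and 7.59 in the 0 h arrays, without overlap. Xenobiotic and oxygenase genes rose in 6 of 17 cases and fell in 2 (median change 0.17, but -0.32 in the values as deposited), led by the flavin monooxygenase Fmo2 (0.62) and the cytochrome Cyp2s1 (0.55) among the rises. In the integrated stress list 0 rose without 2 h array 1 or 2, 1 rose without 0 h array 1, 2 rose without 0 h array 3, 0 fell without 2 h array 1 or 2 and 1 fell without 0 h array 1, 2 or 3. By ranks within arrays 1 rose and 1 fell in that list. In the hypoxia list 5 fell without 2 h array 3 and 7 rose and 4 fell with median and interquartile range scaling. By ranks within arrays 0 hypoxia and glycolysis genes rose and 2 fell. In the xenobiotic list 3 rose without 2 h array 1 or 2 or 0 h array 1. There 1 rose and 2 fell by ranks within arrays, and 1 rose and 7 fell in the values as deposited. For Bbc3 the mean level lay below the olfactory 95th percentile at 2 h.

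TGF-beta and BMP targets had 5 of 17 higher and 3 lower (median change 0.13, but -0.21 in the values as deposited). Tgfb1, the ligand, had levels of 9.37, 9.59 and 9.25 in the 2 h arrays, against 8.79, 8.77 and 8.57 in the 0 h arrays (log2 change 0.70, SE 0.11, adjusted p = 0.00141). Pmepa1, a feedback inhibitor induced by the pathway, rose by 0.71. Bambi, a decoy receptor, had levels of 8.58, 8.58 and 8.87 in the 2 h arrays, against 9.37, 9.41 and 9.64 in the 0 h arrays, a fall in every array (log2 change -0.79, SE 0.11, adjusted p = 0.000939), and Id3, a target of BMP signals, fell by 0.69 on the log2 scale. In the TGF-beta and BMP list 8 rose without 2 h array 3.

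Genes of the respiratory chain fell or did not pass in this normalization. Of 21 measured subunits 11 fell (52.4%) and 0 rose, with a median of -0.28 that was negative in all 5 scalings, but 3 rose and 8 fell with median and interquartile range scaling. Cox7a2, a subunit of complex IV, had levels of 8.26, 8.29 and 8.47 in the 2 h arrays, against 9.57, 9.47 and 9.39 in the 0 h arrays. All the 2 h arrays were lower (log2 change -1.14, SE 0.091, adjusted p = 0.000109). Falls were seen in each other kind of complex listed: Ndufb8 of complex I (-0.54), Sdhb of complex II (-0.75), Uqcrc1 of complex III (-0.61) and Atp5o of the ATP synthase (-0.58). The 77 mitochondrial ribosomal protein genes, grouped after their values were seen, fell in 39 cases and rose in 3 (median -0.32, negative in all 5 scalings). The 67 cytosolic ribosomal protein genes fell in 22 cases and rose in 10 (median -0.077, but 0.14 with median and interquartile range scaling). Of 19 ribosome biogenesis genes 7 fell and 1 rose (median change -0.037, but 0.013 with cyclic loess), led by Dkc1 (-0.62), the pseudouridine synthase of H/ACA particles, and Utp20 (-0.60). In the respiratory chain list 7 fell without 2 h array 2, and 7 fell by ranks within arrays.

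Of 12 genes of mRNA decay 3 rose and 5 fell (median change -0.22, but 0.025 with median and interquartile range scaling). Zfp36l1, a protein that destabilises AU-rich mRNAs, had levels of 10.24, 10.15 and 9.79 in the 2 h arrays, against 9.07, 9.14 and 9.52 in the 0 h arrays (log2 change 0.82, SE 0.15, adjusted p = 0.00294), while Xrn1, the main cytoplasmic exonuclease, fell by 0.76 on the log2 scale. Of 16 apoptosis regulators 1 rose and 5 fell (median change -0.16), with Diablo, a mitochondrial death promoter, at -0.77 and Birc2, a death inhibitor, at -0.61. Of 21 cell cycle genes 8 fell and 1 rose, with a median of -0.25 that was negative in all 5 scalings. The riser was Ccnd1, the cyclin of early G1, with levels of 10.54, 10.70 and 10.83 in the 2 h arrays, against 9.90, 9.997 and 9.76 in the 0 h arrays (log2 change 0.80, SE 0.10, adjusted p = 0.000581). Ccne2, the cyclin of S phase entry, had levels of 5.22, 5.39 and 5.10 in the 2 h arrays, against 6.28, 6.09 and 6.38 in the 0 h arrays (log2 change -1.01, SE 0.11, adjusted p = 0.000283), and Mcm5, part of the replication helicase, fell by 0.70. In the apoptosis list 3 fell without 2 h array 2 or 0 h array 3. For Ccne2 the mean level lay below the olfactory 95th percentile at 2 h.

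The listed antigen presentation genes fell or did not pass in this normalization. None of 12 measured MHC genes rose and 6 fell (50%), with a median of -0.38 that was negative in all 5 scalings. The counts were 2 higher and 3 lower with median and interquartile range scaling, with a median of -0.090, and 1 higher and 6 lower with cyclic loess. By ranks within arrays 0 rose and 3 fell. H2-Ab1, a class II beta chain that type II cells are known to carry, had levels of 11.19, 11.91 and 11.99 in the 2 h arrays, against 12.72, 12.82 and 12.46 in the 0 h arrays. The 2 h arrays were all lower, and 1 of them was well below the other 2 (log2 change -0.97, SE 0.20, adjusted p = 0.00499). H2-DMa, which loads peptides on class II, fell by 1.14, H2-Aa by 0.64, the immunoproteasome subunit Psmb8 by 0.65 and Ciita, the master regulator of class II, by 0.54. Cd74, the class II invariant chain, changed by -0.55 but by 0.14 with median and interquartile range scaling. Nlrc5, which was not in the list, rose by 1.15 without overlap, from a mean of 8.87 at 0 h to 10.02 at 2 h. Of 15 interferon response genes 5 fell and 3 rose (median change -0.079), with Mx1 (-0.94), Rsad2 (-0.79) and Ifit1 (-0.65) lower and Ifit3 (0.47) higher. All 4 are antiviral genes, and Mx1 had levels of 5.13, 5.55 and 5.26 in the 2 h arrays, against 6.34, 6.19 and 6.25 in the 0 h arrays. In the interferon response list 3 fell without 0 h array 3. For Mx1, Rsad2 and Ifit1 the mean level lay below the olfactory 95th percentile at 2 h.

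Of 17 acute phase and defence genes 3 rose and 1 fell (median change 0.10, but -0.014 in the values as deposited). Saa2, serum amyloid A, had levels of 5.65, 5.76 and 5.87 in the 2 h arrays, against 4.09, 4.17 and 4.25 in the 0 h arrays. The groups did not overlap (log2 change 1.59, SE 0.089, adjusted p = 5.64e-05). Orm1, an acute phase glycoprotein, rose by 1.26. In the acute phase list 8 rose and 1 fell with median and interquartile range scaling. For Orm1 the mean level lay below the olfactory 95th percentile at 0 h, and for Saa2 at both times.

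Markers of other cells that an isolate could hold were compared in full lists, and their part in the results was not tested. Airway markers that passed were higher at 2 h in this normalization. Club cell markers had 4 of 12 higher and 0 lower (list mean 10.72 to 11.10 in the 2 h arrays, against 10.29 to 10.75 in the 0 h arrays, median change 0.36, but -0.083 in the values as deposited), with Muc5b (0.74, with overlapping groups) and Scgb3a2 (0.58). Ciliated cell markers had 4 of 11 higher and 0 lower (8.82 to 9.15 in the 2 h arrays, against 8.50 to 8.88 in the 0 h arrays, median change 0.32), with Rsph1 (0.87) and Tuba1a (0.54). Lymphocyte markers had 4 of 13 higher and 0 lower (6.61 to 6.89 in the 2 h arrays, against 6.43 to 6.61 in the 0 h arrays, median change 0.083). Gzma, a granzyme of cytotoxic cells, had levels of 7.46, 8.05 and 7.29 in the 2 h arrays, against 6.70, 6.49 and 6.38 in the 0 h arrays (log2 change 1.07, SE 0.18, adjusted p = 0.00205), and Klrb1c rose by 0.68. These lymphocyte values stand beside the rise of Ccl5, which such cells also make. Mast cell and basophil markers had 3 of 8 higher and 0 lower (6.42 to 6.48 in the 2 h arrays, against 6.16 to 6.37 in the 0 h arrays, median change 0.19), with Il4 (0.63) and Gata2 (0.45). Fibroblast and smooth muscle markers had 5 of 16 higher and 1 lower (6.92 to 7.34 in the 2 h arrays, against 6.91 to 7.07 in the 0 h arrays, median change 0.051), with rises of the collagen genes Col1a2 (0.91) and Col1a1 (0.73) and of elastin, Eln (0.76), and a fall of Lum (-0.99). In the club cell list 2 rose without 2 h array 1, 9 rose and 0 fell with median and interquartile range scaling, and 1 rose and 4 fell in the values as deposited. By ranks within arrays 2 club cell markers rose and 0 fell. In the ciliated cell list 7 rose without 2 h array 3 or 0 h array 3, and 2 rose and 2 fell in the values as deposited. In the mast cell list 2 rose and 2 fell with median and interquartile range scaling. For Klrb1c, Il4 and Lum the mean level lay below the olfactory 95th percentile at both times. The list mean of the mast cell and basophil markers was below that percentile at 2 h.

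Endothelial markers had 2 of 16 higher and 1 lower (list mean 8.05 to 8.39 in the 2 h arrays, against 7.98 to 8.18 in the 0 h arrays, median change 0.23, but -0.079 in the values as deposited), with Ramp2 (0.58) and Emcn (-0.57). Macrophage markers had 2 of 17 higher and 2 lower (6.86 to 7.24 in the 2 h arrays, against 6.89 to 7.25 in the 0 h arrays, median change -0.12), with C1qb (0.75) and Fabp4 (-0.77). Neutrophil markers had 4 of 13 higher and 3 lower (5.67 to 5.71 in the 2 h arrays, against 5.57 to 5.88 in the 0 h arrays, median change -0.18, but 0.17 in the values as deposited), with Camp (0.66) and Retnlg (-0.98). Of the 4 erythrocyte markers measured 0 rose and 0 fell (6.84 to 7.24 in the 2 h arrays, against 6.88 to 7.01 in the 0 h arrays, median change 0.12). Type I cell markers had 0 of 15 higher and 2 lower (8.85 to 9.29 in the 2 h arrays, against 8.88 to 9.59 in the 0 h arrays, median change -0.094): Ager, the receptor RAGE, changed by -0.35 but by 0.35 with median and interquartile range scaling, and Col4a3 by -0.31. Markers of the transitional epithelial state between type II and type I cells had 3 of 14 higher and 1 lower (10.85 to 11.26 in the 2 h arrays, against 10.77 to 10.90 in the 0 h arrays, median change 0.22, but -0.21 in the values as deposited). In that list Tm4sf1, a membrane protein, had levels of 11.53, 11.40 and 11.04 in the 2 h arrays, against 10.37, 10.44 and 10.59 in the 0 h arrays (log2 change 0.86, SE 0.13, adjusted p = 0.00122) and the keratin Krt7 rose by 0.63. In the endothelial list 10 rose without 2 h array 3. In the macrophage list 5 fell without 2 h array 2 or 0 h array 3. In the neutrophil list 2 rose without 2 h array 1 or 3 or 0 h array 1 or 3, 1 fell without 0 h array 2 and 2 rose and 4 fell with median and interquartile range scaling. In the type I cell list 2 rose without 0 h array 3, 0 fell without 2 h array 1 or 2 or 0 h array 1 or 3 and 3 rose and 1 fell with median and interquartile range scaling. In the transitional epithelium list 8 rose without 2 h array 3 and 7 rose and 0 fell with median and interquartile range scaling. By ranks within arrays 1 transitional marker rose and 0 fell, and 2 neutrophil markers rose and 1 fell. Of the type I cell markers 0 rose and 0 fell by ranks. For Fabp4 and Retnlg the mean level lay below the olfactory 95th percentile at 2 h, and for C1qb and Camp at both times. The list mean of the neutrophil markers was below that percentile at both times.

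The C/EBP family did not move as one. Cebpa had levels of 10.72, 10.71 and 10.87 in the 2 h arrays, against 10.70, 10.76 and 10.77 in the 0 h arrays. The groups overlapped, and the change was 0.029 (SE 0.08, 95% interval -0.15 to 0.21, adjusted p = 0.791). In the values as deposited the same difference was -0.46, so the sign and size of the Cebpa change depend on the normalization. Cebpd, a family member induced by glucocorticoids and cytokines, had levels of 7.48, 7.57 and 7.89 in the 2 h arrays, against 8.51, 8.67 and 8.76 in the 0 h arrays. All the 2 h arrays were lower, and the 2 h mean was 50% of the 0 h mean (log2 change -1.0, SE 0.12, adjusted p = 0.000466). Cebpb had levels of 9.05, 9.10 and 8.93 in the 2 h arrays, against 8.65, 8.64 and 8.80 in the 0 h arrays, a rise without overlap (log2 change 0.33, SE 0.086, adjusted p = 0.0137) that was -0.079 in the values as deposited. Cebpe (-0.13, but 0.08 in the values as deposited), Cebpg (-0.17) and Ddit3, the stress factor CHOP (-0.18), did not pass. Of the 6 members measured 1 rose and 1 fell. In the C/EBP list 2 rose and 3 fell with median and interquartile range scaling. For Cebpe the mean level lay below the olfactory 95th percentile at 2 h.

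Levels at 24 h in control cells, from 3 further arrays, show which of these genes stayed at their 2 h level. They are given as a description after quantile normalization of all 18 arrays together, which shifts the values slightly. Nr1d1 was 10.30 ± 0.29 at 0 h, 11.23 ± 0.16 at 2 h and 10.46 ± 0.26 at 24 h (mean ± SD, n = 3), and Ccl5 was 8.76 ± 0.29 at 0 h, 9.98 ± 0.30 at 2 h and 8.85 ± 0.15 at 24 h, so both were near the 0 h level again at 24 h. Mir17hg was 7.15 ± 0.17 at 0 h, 6.07 ± 0.21 at 2 h and 7.04 ± 0.097 at 24 h and also came back, whereas Mir19a was 7.33 ± 0.16 at 0 h, 5.41 ± 0.33 at 2 h and 6.20 ± 0.13 at 24 h. Csf2 was 7.68 ± 0.10 at 0 h, 6.54 ± 0.22 at 2 h and 6.58 ± 0.20 at 24 h, Socs3 was 9.55 ± 0.14 at 0 h, 8.85 ± 0.069 at 2 h and 8.43 ± 0.17 at 24 h and H2-Ab1 was 12.58 ± 0.18 at 0 h, 11.59 ± 0.46 at 2 h and 11.56 ± 0.20 at 24 h. These 3 had not returned at 24 h. Zbtb16 was 9.14 ± 0.29 at 0 h, 8.39 ± 0.33 at 2 h and 10.06 ± 0.55 at 24 h, above its 0 h level at 24 h. Hspa1a was 10.75 ± 0.11 at 0 h, 9.49 ± 0.13 at 2 h and 10.42 ± 1.17 at 24 h, with 24 h arrays spread from 9.47 to 11.72. Cebpa was 10.63 ± 0.036 at 0 h, 10.66 ± 0.089 at 2 h and 10.37 ± 0.17 at 24 h.

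**Figure D4:**
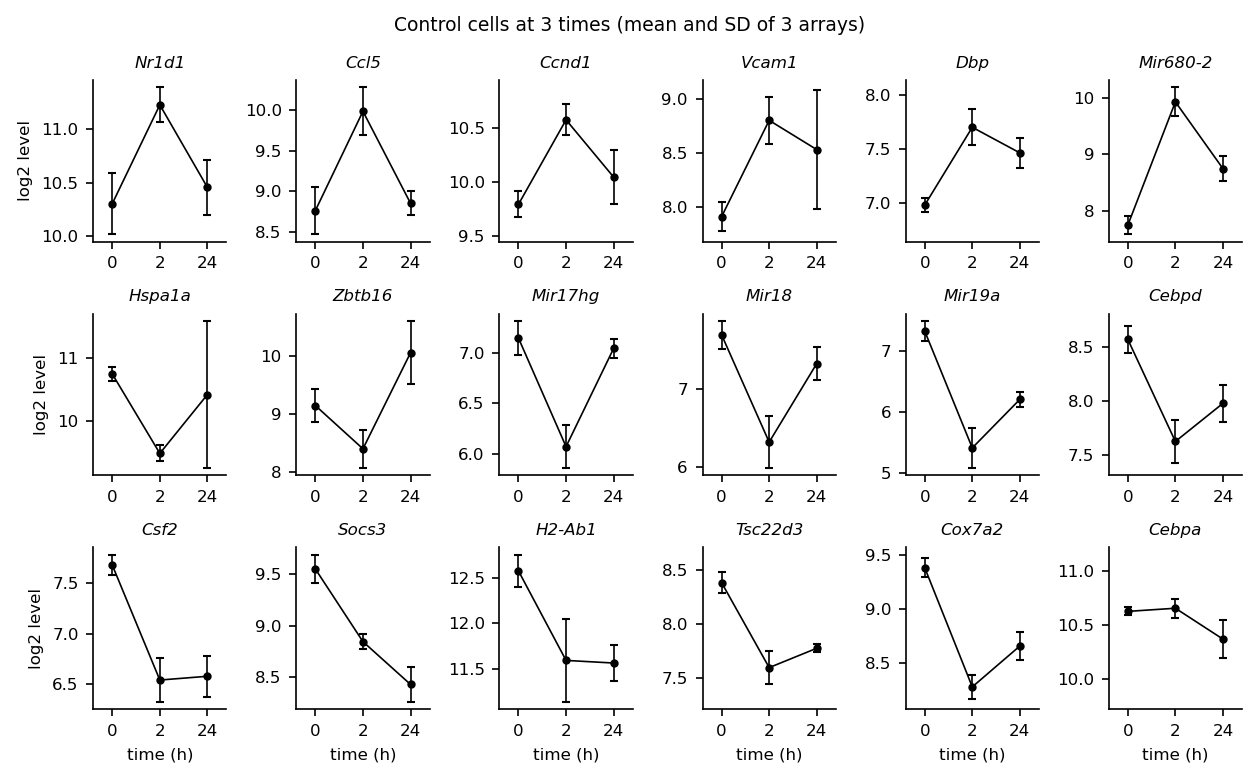
Mean log2 level (y axis) of 18 genes in control cells at 0, 2 and 24 h (x axis, evenly spaced), with bars for the SD of 3 arrays. Nr1d1 and Ccl5 peak at 2 h, Mir17hg and Cebpd are lowest at 2 h, and Csf2, Socs3 and H2-Ab1 are low at both later times.

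The response of control cells was compared with that of Cebpa-deleted cells by the interaction, the Cebpa-deleted change minus the control change, over the 12 arrays of both genotypes at 2 and 0 h. No gene passed limma's test at an adjusted p below 0.05 (0%), and 1261 genes (6.32%) had an unadjusted p below 0.05. No difference between the genotypes in the 0 to 2 h response was thus shown for any single gene, and the test does not show that the responses were alike. Leaving out Cebpa-deleted replicate 2 at 2 h gave 2 genes, and leaving out Cebpa-deleted replicate 4 or control replicate 2 at 2 h gave 1 each. Srsy changed by 1.38 in Cebpa-deleted cells and 2.94 in controls, Hspa1a by -1.46 in Cebpa-deleted cells and -1.28 in controls, and Nr1d1 by 0.59 in Cebpa-deleted cells and 0.93 in controls. The genes were chosen by their change in controls, so a smaller change in the other genotype is built into the choice. Cebpa changed by -0.67 in Cebpa-deleted cells and 0.029 in controls (interaction -0.70, SE 0.25, adjusted p = 0.741). The smallest interaction p-values in the upward direction were those of Nptx1 (0.33 in Cebpa-deleted cells, -0.35 in controls, adjusted p = 0.617) and the interferon-inducible Ifi209 (0.60 in Cebpa-deleted cells, -0.86 in controls). In the other direction Zfp980 changed by 0.28 in Cebpa-deleted cells and 1.16 in controls, and Prl3c1 by -0.11 in Cebpa-deleted cells and 0.50 in controls. Rsad2, described above as lower in controls, changed by -0.029 in Cebpa-deleted cells and -0.79 in controls (adjusted p = 0.627). For Rsad2 the mean level lay below the olfactory 95th percentile at 2 h, and for Ifi209, Zfp980 and Prl3c1 at both times.

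**Figure D5:**
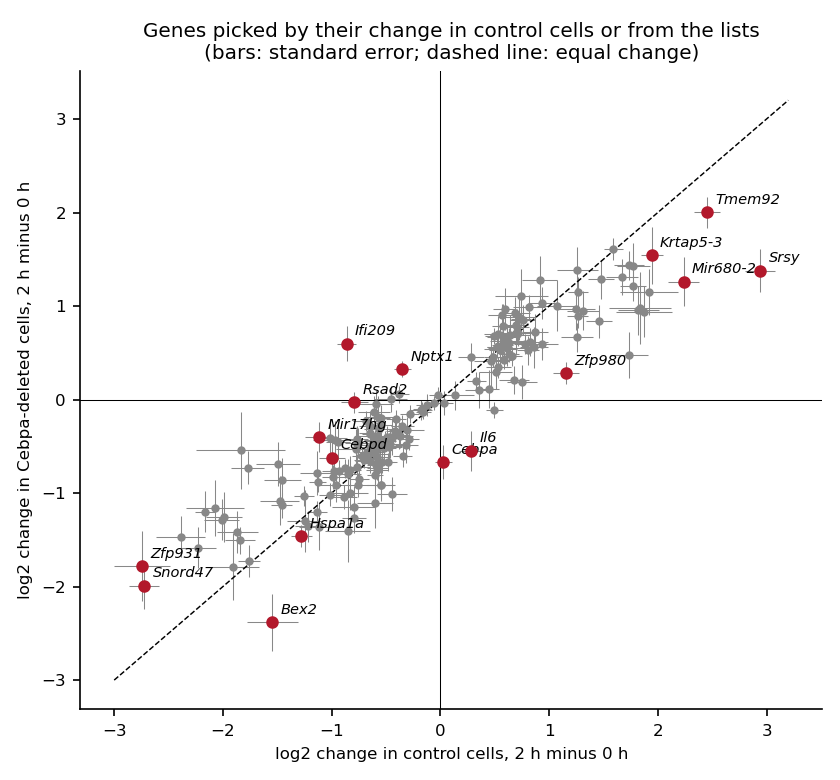
The log2 change from 0 to 2 h in Cebpa-deleted cells (y axis) against that in control cells (x axis) for genes chosen by their control change or from the lists, with standard errors as bars and a dashed line of equal change. Hspa1a lies near the line, Srsy below it and Ifi209 above it, and none of the differences passed the interaction test.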

How the data were processed

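Per the labels, total RNA of isolated type II cells was prepared with GITC and labelled with biotin for Affymetrix-protocol arrays. The authors deposited log2 values; per the submitters' processing notes RMA was used. Its version, and which arrays it covered together, are not given in the sources used here. Of 35557 features, 21789 had 1 gene symbol. Positions of the features in the genome were not checked, so a feature can measure a like copy at another place, also for Rpl29, Idi1, Bex4 and Ciart. For the 999 genes with several features the one of highest mean over the 18 arrays was kept, leaving 19938 genes, and low levels were not filtered.

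The 6 control arrays at 2 and 0 h were quantile normalized together. Differences (2 h minus 0 h) were tested with limma 3.58.1 (lmFit and eBayes) in R 4.3.3, adjusted by the Benjamini-Hochberg method over all genes and called below 0.05. The interaction was fitted on 12 arrays normalized together. The number of arrays, 3 per group, limits the precision. The fits were tested on simulated data. Alternatives were the deposited values, other scalings, fits without each array, a replicate block and filters on level.

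The comparison and the 42 lists (741 members, 691 measured) were chosen with earlier results of these data known. Named genes are all C/EBP members, the largest changes with non-overlapping arrays (predicted, olfactory and small RNA genes passed over), and the members of each list with the largest changes. Groups called by symbol, small RNAs and the upper 25 percent by level were picked after their values were seen. Numbers of the replicates were checked as pairs. Deviations of same-numbered arrays from their group means correlated over genes with r of -0.08, 0.01 and -0.02. No shared deviation was seen and the main fit used no pairing, but these values cannot exclude a common origin of same-numbered arrays. Sequences come from RefSeq tables of GRCm38.p6, in which 259 of the measured miRNA genes had a hairpin.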

Additional observations from a re-analysis of the deposited data

How the results depend on the processing

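The number of genes that changed from 0 to 2 h was 9320. It was 14213 in the values as deposited, 5364 among the 11963 genes (60 percent) of highest level and 3102 with a change of at least 1.5-fold. Among genes above the olfactory 95th percentile by mean over the 18 deposited arrays (chosen after seeing the data) it was 5957. Of the main calls 7524 kept their call and direction in the deposited values and 50 were called in the opposite direction. Leaving out 1 array in turn gave 7313 to 9997 genes. With the replicate number as a block 8480 genes changed, 8250 of them called in the same direction without it, and the interaction gave 0. Whether the replicate numbers pair the samples is not known. Ranks within arrays, cyclic loess and normalization of all 18 arrays gave 8353, 9062 and 9331 genes. The interaction of genotype and time gave 2 genes without Cebpa-deleted replicate 2 at 2 h, 1 without Cebpa-deleted replicate 4 at 2 h, 1 without control replicate 2 at 2 h, and 0 genes without each other array and in the other alternatives run.

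The 191 genes followed singly through the alternatives include some not named above. Of the 179 called genes among them, 124 kept their call and direction in every alternative. The sign turned in the values as deposited for Cebpa (-0.46), Cebpb (-0.079), Cebpe (0.080), Abca3 (-0.44), Fos (-0.36), Il6 (-0.13) and Hmox1 (-0.13), alone or with all 18 deposited arrays in the fit. With median and interquartile range scaling it turned for Sftpa1 (0.82), Sftpb (0.87), Sftpc (0.76), Sftpd (0.35), Lamp3 (0.40), Napsa (0.30), Cd74 (0.14) and Ager (0.35). Sftpb was 0.015 with cyclic loess. Leaving out 1 array in turn gave -0.0602 to 0.017 for Sftpb, -0.022 to 0.057 for Cebpa and -0.0048 to 0.064 for Abca3, with negative Cebpa and Abca3 values without the third 2 h array. The causes were not tested. Of the 42 lists 22 kept the sign of their median in all 5 scalings. Levels under or near the olfactory 95th percentile limit what can be read from Saa2, Csf2, the miR-17-92 members, the named small nucleolar RNAs and the leading zinc finger genes. Counts of list members that moved by over 1.5 times without 1 array stand beside each list.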
